A study of Mus musculus with 6 samples.

Results

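Among the genes that store, oxidise and read out vitamin A, 9 were examined in RNA of primary mouse hepatic stellate cells. They were the receptor genes Rara, Rarb, Rarg and Rxra, the retinol and retinal enzyme genes Rdh10, Dhrs3, Aldh1a1 and Aldh1a2, and the lipase gene Lipe. They were taken by gene symbol from the deposited count table, which held all 9 among 22905 symbols. The titles put 3 libraries in a PBS group and 3 in a DOX group, and all 6 also carry the mark S2W, which the labels do not explain. In both groups the mice carried the genotype BucheKI/KI-Hep and had received CCl4 (carbon tetrachloride), a liver toxin used to model fibrosis, and the design names over-expression of BUCHE (butyrylcholinesterase) in hepatocytes before the stellate cells were isolated. The comparison therefore asks how retinoid transcripts of the isolated cells differed between DOX and PBS in CCl4-treated mice of this genotype. The labels do not explain PBS or DOX further. A DOX group of another genotype and mice without CCl4 were not analysed here, so an action of DOX itself and one of BUCHE over-expression cannot be told apart.

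Stellate cells hold most of the body's vitamin A, as retinyl esters in lipid droplets, and lose these droplets when they turn into myofibroblasts. Retinyl esters are made by LRAT and cleaved by lipases. Retinol is oxidised to retinal by RDH10, a step that DHRS3 reverses, and retinal is oxidised to retinoic acid by enzymes of the ALDH1A family. Retinoic acid binds the receptors RARα, RARβ and RARγ, which sit on DNA as heterodimers with a retinoid X receptor, and CYP26 enzymes break it down.

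Total counts per library were between 36220282 and 37707364. Bche, the gene named by the design, was higher in DOX, at 50.5 ± 43.4 CPM (read counts scaled by library size) against 0.415 ± 0.240 CPM in PBS (SD, n = 3 each, edgeR adjusted p = 0.0206). By replicate, Bche was at 35.8, 16.4 and 99.3 CPM in DOX. The hepatocyte marker sum given below had the same order within DOX (1220, 487 and 4342 CPM) and another within PBS. The part of hepatocyte RNA in the Bche level was not tested. Markers of other liver cells were present in every library. Summed over a list of 14 macrophage genes, none at 0 in all libraries, the level was 4408 to 6772 CPM with PBS and 8059 to 14968 CPM with DOX. A list of 14 hepatocyte genes, again with none at 0 in all libraries, summed to 285 to 600 CPM with PBS and 487 to 4342 CPM with DOX, highest in DOX replicate 3. The 14 endothelial genes summed to 6194 to 7618 CPM with PBS and 5614 to 6977 CPM with DOX, likewise with none at 0 in all of them. The stellate cell list, of which 17 of 18 genes were in the table and none was at 0 in all libraries, summed to 671 to 1515 CPM with PBS and 825 to 1289 CPM with DOX, and its member Gfap was below the filter on low counts. In every library the macrophage sum and the endothelial sum were above the stellate sum, though sums over different genes do not give cell shares. The levels of the 9 genes below are therefore those of mixed RNA, and their cell of origin was not tested. In such bulk RNA, fewer cells of a type and less RNA per cell cannot be told apart. The labels do not tell whether replicates are separate mice or cultures, so every p-value here rests on the spread among these libraries alone, which may be technical.

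Promoter windows of 3 of the genes are shown as context for the results. Rarb is known for a retinoic acid response element near its start, and Rara and Lipe are the 2 genes that passed the test below. Sequences are RefSeq promoter windows of GRCm38.p6, from 250 bases before to 50 bases after an annotated start, and 8 of the 9 genes had one. The Rarb window is chr14:16575427-16575726, minus strand, and its capitals mark a direct repeat with a spacer of 5 bases.
Rarb: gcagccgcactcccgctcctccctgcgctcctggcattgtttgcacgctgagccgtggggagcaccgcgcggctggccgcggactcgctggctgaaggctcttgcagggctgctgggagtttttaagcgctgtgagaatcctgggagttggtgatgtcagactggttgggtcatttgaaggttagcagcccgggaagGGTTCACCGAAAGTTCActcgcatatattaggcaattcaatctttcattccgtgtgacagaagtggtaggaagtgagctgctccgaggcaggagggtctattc
The repeat was searched on both strands as 2 half-sites in the same orientation, with 5 bases between them. A half-site was AGGTCA as the consensus, with AGTTCA as a first variant, GGGTCA as another and GGTTCA as the last. In Rarb the repeat spans 17 bases, at positions -53 to -37 from the Rarb start. Of 32817 promoter windows 32 held such a repeat, which is 0.0975%, and Rarb was the 1 member with it among the 8 that had a window. Cyp26a1, which encodes a retinoic acid hydroxylase, held one too, on the opposite strand at positions -32 to -16. The repeats are shown side by side, with half-sites in capitals.
Rarb repeat: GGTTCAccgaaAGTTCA
Cyp26a1 repeat: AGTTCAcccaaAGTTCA
The first of 4 Rara windows (chr11:98937446-98937745, plus strand) and the first of 2 Lipe windows (chr7:25395938-25396237, minus strand) have no such repeat, and their capitals mark GGGCGG and CCAAT on either strand.
Rara: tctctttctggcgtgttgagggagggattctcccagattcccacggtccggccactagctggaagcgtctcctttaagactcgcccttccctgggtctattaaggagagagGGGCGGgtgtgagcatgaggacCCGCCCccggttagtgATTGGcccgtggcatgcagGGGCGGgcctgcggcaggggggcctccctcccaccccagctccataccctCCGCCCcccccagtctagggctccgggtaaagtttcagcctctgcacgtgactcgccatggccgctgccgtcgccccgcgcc
Lipe: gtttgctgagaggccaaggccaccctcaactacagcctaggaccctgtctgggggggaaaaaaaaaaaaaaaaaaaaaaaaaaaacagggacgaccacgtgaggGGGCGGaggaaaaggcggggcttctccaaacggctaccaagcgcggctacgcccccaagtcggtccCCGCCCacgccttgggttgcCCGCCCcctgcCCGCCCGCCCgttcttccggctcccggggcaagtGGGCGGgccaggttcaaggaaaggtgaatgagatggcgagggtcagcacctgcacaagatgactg
GGGCGG occurred 4 times in the Rara window and 6 times in the Lipe window, with overlapping matches counted separately, and in 35.6% of all windows. CCAAT occurred once in the Rara window and not in the Lipe window, and in 37.4% of all windows. These matches describe the letters and do not show that a factor is bound.

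Of the 9 genes, Rara fell and Lipe rose in DOX, and the other 7 did not pass the test. The 9 genes all passed the filter on low counts, so each was tested among 14439 genes by edgeR's quasi-likelihood test, with Benjamini-Hochberg adjustment over all of them and a threshold of 0.05. Across all genes tested 6.41% passed, 4.38% higher and 2.04% lower in DOX, and of the 9 genes 1 was higher and 1 lower. An unadjusted p under 0.05 was found for 4 of the 9, beside 28.7% of all genes. The PBS and DOX libraries did not overlap for 4 of the 9 genes, Rara, Rxra, Aldh1a1 and Lipe, beside 34.6% of all genes tested. The log2 fold change was positive for 6 of the 9 and had a median of 0.21, beside -0.01 over all genes. Both calls were near the threshold and both were lost whenever any 1 library was left out. Without PBS replicate 2 or without PBS replicate 3, 0 of all genes passed, so no call could be kept there.

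**Figure D1:**
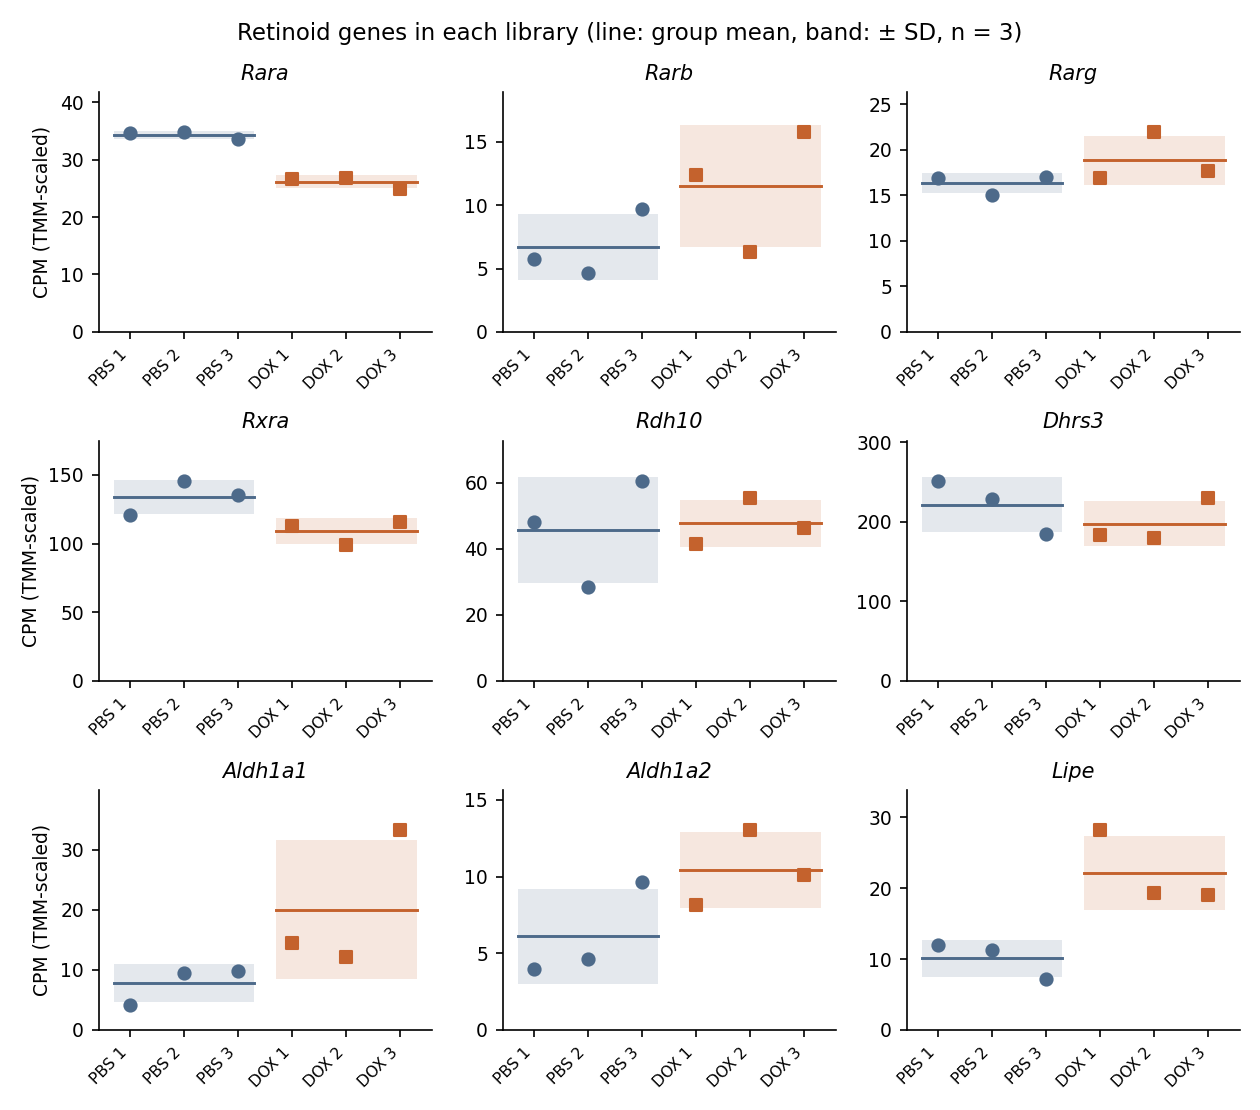
Normalised counts (CPM, vertical axis from 0) of each of the 9 genes in the 3 PBS libraries (circles) and the 3 DOX libraries (squares), with the group mean as a line and ± 1 SD as a band. Rara lies at 33.5 to 34.8 CPM with PBS and 24.8 to 26.9 CPM in DOX, and Lipe at 7.12 to 11.9 CPM with PBS and 19.0 to 28.2 CPM in DOX.

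Per length, Dhrs3 was the most abundant of the 9 transcripts in both groups. As FPKM (fragments scaled by transcript length and library size), its level was 40.3 to 53.2 in PBS and 35.0 to 48.1 in DOX, above every other member in each group. Rxra and Rdh10 came next, with means of 24.5 and 20.8 FPKM in PBS and 18.3 and 19.9 FPKM in DOX, and their ranges overlapped in both groups. In PBS Rara followed at 7.69 FPKM and Rarg at 5.12 FPKM, each apart from its neighbours in the order. Aldh1a2, Aldh1a1, Lipe and Rarb were lowest in PBS, with means from 2.83 down to 1.86 FPKM and each range overlapping the next. In DOX the order below Rxra was Aldh1a1, Rarg, Rara, Lipe, Aldh1a2 and Rarb, with means from 6.46 to 2.93 FPKM, and no neighbours among them were separated by their ranges.

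Rara encodes RARα, the most abundant of the RAR transcripts per length in PBS, and lies on chromosome 11 from 98927818 to 98974942 on the plus strand (GRCm38, GENCODE M21). It received 1308, 1330 and 1328 counts in the PBS libraries, by replicate number, and 910, 954 and 909 in the DOX libraries. Every DOX library was below every PBS library. The normalised level was 34.3 ± 0.692 CPM with PBS and 26.1 ± 1.13 CPM with DOX (SD, n = 3 each), 1.316-fold lower in DOX (log2 fold change of -0.40 with an SE of 0.09 and a 95% interval of -0.60 to -0.19, adjusted p = 0.0450 by edgeR). The libraries of a group differed little: the coefficient of variation was 2.02% in PBS and 4.33% in DOX, beside 2.75% and 3.29% from counting error alone. The adjusted p was 0.0638 to 0.134 with each library left out and 0.00223 by DESeq2. By library totals alone, which shifted the median of all genes to -0.14, the log2 fold change of Rara was -0.52.

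Rarb encodes RARβ, whose gene is a known target of retinoic acid, and lies on chromosome 14 from 16430839 to 16819156 on the minus strand. Its levels were 5.78, 4.66 and 9.67 CPM with PBS and 12.4, 6.28 and 15.8 CPM with DOX. DOX replicate 2 lay below PBS replicate 3, so the groups overlapped. The means were 6.70 ± 2.63 and 11.5 ± 4.81 CPM (SD, n = 3 each), with a log2 fold change of 0.78 (SE 0.40, 95% interval -0.16 to 1.71, edgeR adjusted p = 0.245), which was 0.47 without DOX replicate 3 and 1.13 without PBS replicate 3. Within DOX the libraries had the same order as the hepatocyte marker sum, which stood at 1220, 487 and 4342 CPM in replicates 1, 2 and 3. Within PBS they did not. Rxra and Dhrs3, both with a negative log2 fold change, and Aldh1a1 had that order within DOX too. The part of hepatocyte RNA in the Rarb level was not tested. Annotated Rarb exons share 1793 of 5265 bases with Top2b, which runs on the opposite strand and had 76.8 to 99.4 CPM. Whether counting used the strand is not given in the sources used here, so reads of the pair may not be fully told apart.

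Rarg, which encodes RARγ and lies on chromosome 15 from 102234938 to 102257517 on the minus strand, was at 16.9, 15.04 and 17.0 CPM with PBS and 16.9, 21.97 and 17.6 CPM with DOX. DOX replicate 2 was the highest library, and the others lay close together. The log2 fold change was 0.21 (95% interval -0.12 to 0.53, edgeR adjusted p = 0.360).

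Among the RAR transcripts, Rara had a lower share in each DOX library than in any PBS library. Of the FPKM summed over Rara, Rarb and Rarg, Rara held 52.9%, 56.4% and 48.4% in PBS and 40.5%, 41.1% and 35.9% in DOX. Rarb held 10.9%, 9.32% and 17.2% in PBS and 23.3%, 11.8% and 28.2% in DOX, and Rarg held 34.2% to 36.2% in PBS and 35.8% to 47.1% in DOX, both with overlap. The sum of the RAR genes was 57.3 ± 2.86 CPM with PBS and 56.4 ± 1.60 CPM with DOX (SD, n = 3 each). For the Rara share the exact two-sided permutation test gave p = 0.1, the smallest that 3 against 3 libraries allow (0.28 adjusted over 14 such quantities).

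**Figure D2:**
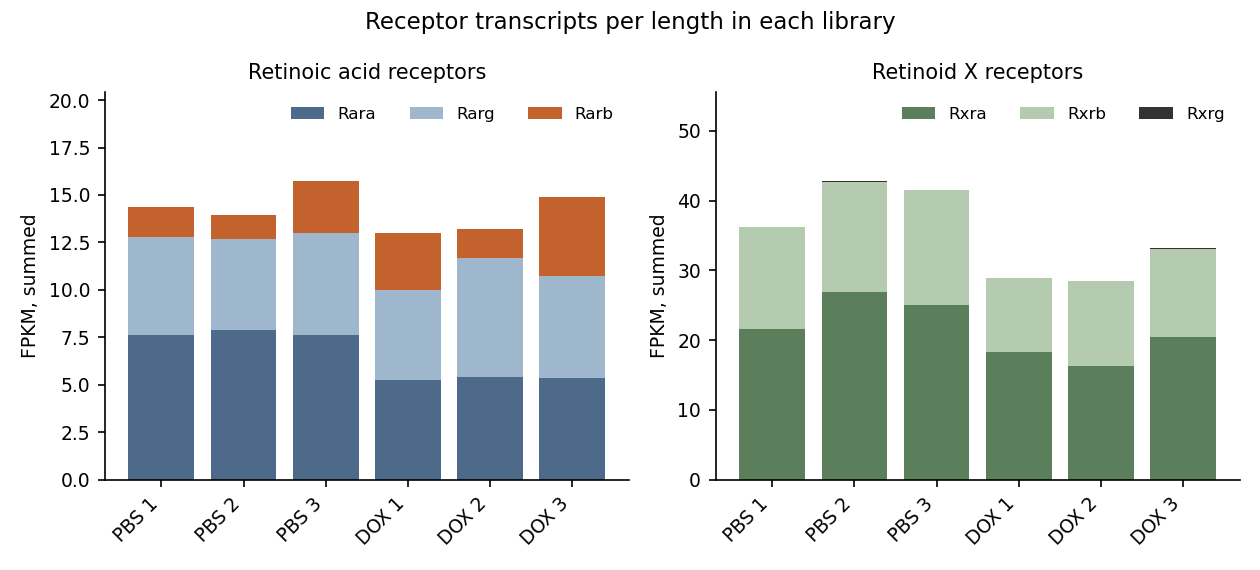
Deposited FPKM of the RAR genes (left) and the RXR genes (right), stacked in each library, vertical axes from 0. The Rara part of the RAR stack is 48.4% to 56.4% in PBS and 35.9% to 41.1% in DOX, and the RXR stack is 36.3 to 42.8 FPKM in PBS and 28.5 to 33.2 FPKM in DOX. FPKM lack the TMM scaling used for CPM, which narrows this gap. In CPM the RXR sum was 175 ± 13.5 with PBS and 143 ± 8.20 with DOX (SD, n = 3 each), also without overlap.

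Rxra encodes RXRα, the main retinoid X receptor of liver and the heterodimer partner of the RARs and of several other nuclear receptors, and lies on chromosome 2 from 27676440 to 27762957 on the plus strand. Its levels were 121, 145 and 135 CPM with PBS and 113, 98.7 and 116 CPM with DOX. The groups did not overlap, with a gap from 116 to 121 CPM. The means were 134 ± 12.4 and 109 ± 9.12 CPM (SD, n = 3 each), with a log2 fold change of -0.29 (SE 0.11, 95% interval -0.54 to -0.05), but the edgeR adjusted p of 0.122 did not pass the threshold over all genes. Rxrb, the gene of RXRβ, had 41.4 ± 1.91 CPM with PBS and 34.1 ± 1.89 CPM with DOX (log2 fold change -0.28, edgeR adjusted p = 0.0987). Rxra made up 59.7% to 63.0% of the summed RXR FPKM in PBS and 57.2% to 63.0% in DOX. For each unit of summed RAR FPKM there were 2.53, 3.06 and 2.64 units of RXR in PBS and 2.23, 2.15 and 2.22 in DOX, without overlap (exact permutation p = 0.1, the smallest possible here, 0.28 adjusted).

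Rdh10 encodes the retinol dehydrogenase that carries out the first oxidation, from retinol to retinal, and lies on chromosome 1 from 16105774 to 16133734 on the plus strand. It stood at 48.1, 28.5 and 60.5 CPM with PBS and 41.5, 55.5 and 46.2 CPM with DOX. All DOX libraries lay within the PBS range. The log2 fold change was 0.06 (95% interval -0.56 to 0.68, edgeR adjusted p = 0.902), and its sign changed by library totals alone (-0.06).

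Dhrs3 encodes the retinal reductase that turns retinal back into retinol, and lies on chromosome 4 from 144892827 to 144928209 on the plus strand. Its levels were 251.3, 229 and 184 CPM with PBS and 184, 179 and 230 CPM with DOX. The groups overlapped, with DOX replicate 3 above 2 of the PBS libraries. The log2 fold change was -0.16 (95% interval -0.52 to 0.19, edgeR adjusted p = 0.512). The ratio of Dhrs3 to Rdh10 FPKM was 2.48, 3.83 and 1.45 in PBS and 2.10, 1.54 and 2.37 in DOX, and the exact permutation test gave p = 0.5.

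Aldh1a1, a retinal dehydrogenase gene on chromosome 19 from 20492715 to 20643465 on the plus strand, had the largest fold change of the 9 and did not pass. The levels were 4.11, 9.44 and 9.77 CPM with PBS and 14.5, 12.2 and 33.3 CPM with DOX. Each DOX library was above each PBS library, and DOX replicate 3 was more than the sum of the other DOX libraries. The means of 7.78 ± 3.18 and 20.0 ± 11.6 CPM (SD, n = 3 each) gave a log2 fold change of 1.36 (SE 0.47, 95% interval 0.25 to 2.48, edgeR adjusted p = 0.115), which was 0.78 without DOX replicate 3. DESeq2, which called 18.4% of all genes, gave an adjusted p of 0.0193. Within each group the Aldh1a1 libraries had the same order as the hepatocyte marker sum, which was 285, 536 and 600 CPM with PBS and 1220, 487 and 4342 CPM with DOX. There were 4.81, 5.68 and 4.69 Aldh1a1 counts for every 100 counts of the hepatocyte gene Alb in PBS, and 4.20, 10.6 and 1.79 in DOX. The part of hepatocyte RNA in the Aldh1a1 level was not tested. Its close paralog Aldh1a7 stood at 0.0530 to 6.33 CPM, highest in DOX replicate 3 as well, and reads may have been split between the paralogs.

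Aldh1a2, the retinal dehydrogenase gene of many mesenchymal and mesothelial cells, lies on chromosome 9 from 71215789 to 71296243 on the plus strand and was at 4.003, 4.66 and 9.67 CPM with PBS and 8.14, 13.0 and 10.1 CPM with DOX. PBS replicate 3 lay within the DOX range. The log2 fold change was 0.77 (SE 0.36, 95% interval -0.09 to 1.63, edgeR adjusted p = 0.214), and 1.26 without PBS replicate 3. The 15 mesothelial and portal fibroblast markers, none at 0 in all libraries, summed to 148, 327 and 367 CPM with PBS and 278, 446 and 433 CPM with DOX. Within each group this sum had the same order of libraries as Aldh1a2. The part of mesothelial and portal fibroblast RNA in the Aldh1a2 level was not tested.

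Lipe encodes hormone-sensitive lipase, a neutral lipase that cleaves diacylglycerol, cholesteryl esters and retinyl esters, and lies on chromosome 7 from 25379527 to 25398710 on the minus strand (GRCm38, GENCODE M21). It received 450, 432 and 282 counts in the PBS libraries and 964, 686 and 696 in the DOX libraries. Every DOX library was above every PBS library, and DOX replicate 1 was the highest. The level was 10.1 ± 2.61 CPM with PBS and 22.2 ± 5.23 CPM with DOX (SD, n = 3 each), 2.19-fold higher in DOX (log2 fold change of 1.13 with an SE of 0.25 and a 95% interval of 0.55 to 1.71, adjusted p = 0.0455 by edgeR). The adjusted p was 0.0502 to 0.128 with each library left out and 0.0582 by limma on log2(FPKM + 1). The macrophage marker sum was 4575, 6772 and 4408 CPM with PBS and 14968, 8059 and 9239 CPM with DOX, so that it too peaked in DOX replicate 1 and was at its minimum in PBS replicate 3. The full order of the libraries differed between Lipe and the macrophage sum within both groups. A sum of 7 neutrophil genes had the same order as Lipe within both groups. It was 58.8, 42.4 and 27.2 CPM with PBS and 152, 134 and 106 CPM with DOX. The part of macrophage or neutrophil RNA in the Lipe level was not tested. Lipe exons share 918 of 5886 bases with the antisense gene 4732471J01Rik, which had 0.573 to 1.46 CPM.

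**Figure D3:**
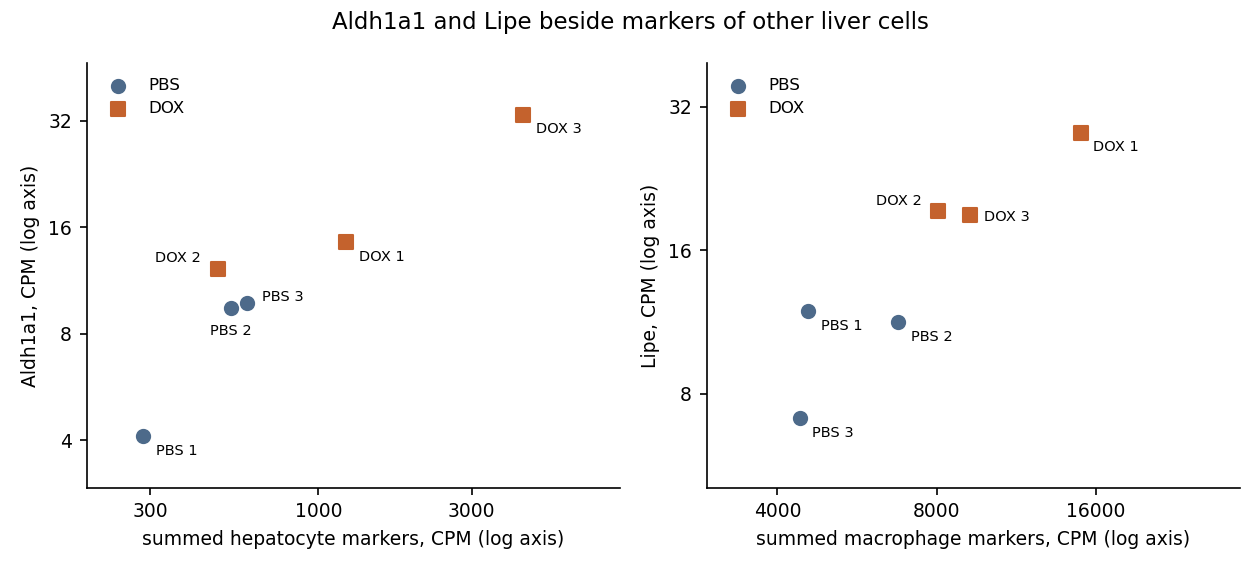
Normalised counts of Aldh1a1 against the summed hepatocyte markers (left) and of Lipe against the summed macrophage markers (right), one point per library, all axes logarithmic in CPM. Aldh1a1 and the hepatocyte sum are both highest in DOX replicate 3 (33.3 and 4342 CPM), and Lipe and the macrophage sum in DOX replicate 1 (28.2 and 14968 CPM).

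**Figure D4:**
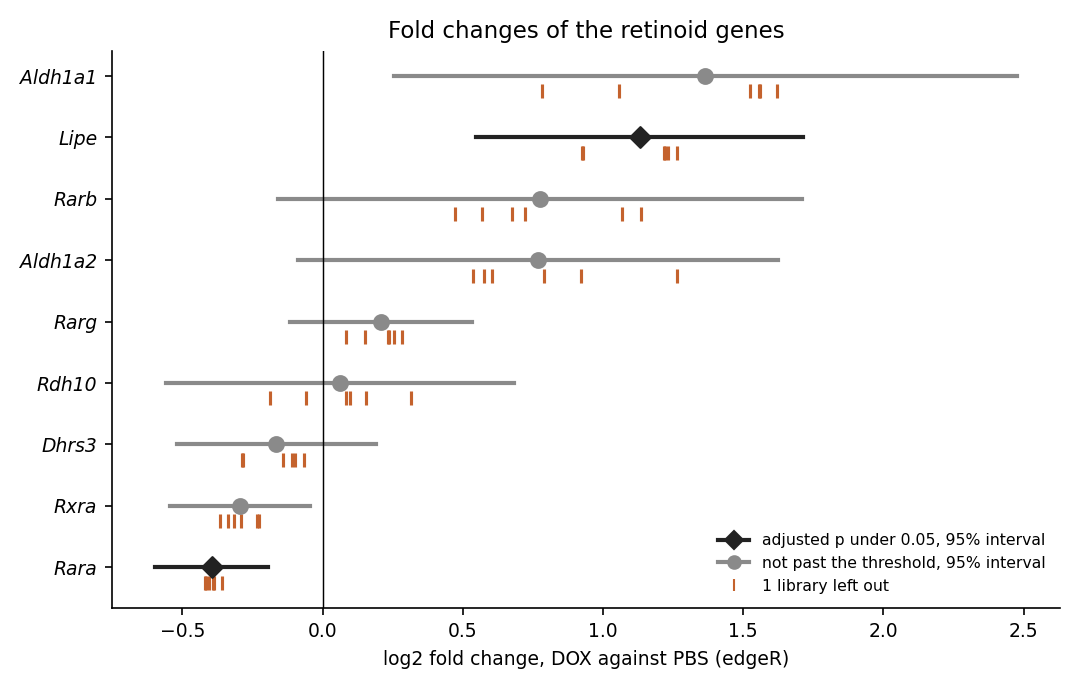
Log2 fold change of DOX against PBS for the 9 genes (edgeR), with 95% intervals as bars, diamonds for the genes past an adjusted p of 0.05 (Rara and Lipe) and ticks for the value with each library left out. Ticks lie on both sides of 0 for Rdh10 and on 1 side for the other 8 genes.

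The pattern over the 6 libraries most like that of each called gene was looked up among 9959 other genes with a mean of at least 5 CPM. For Rara the highest Pearson correlations of log2 CPM were with Zxdc, Rabep1 and Snapc3 (r = 0.996, 0.996 and 0.995). For Lipe they were with Pirb, Cd53 and Arpc5 (r = 0.998, 0.997 and 0.997), of which Pirb and Cd53 encode surface proteins of leukocytes. With 6 points that also share the group difference, 493 genes had r above 0.9 with Rara and 832 with Lipe, so the likeness is a description only.

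Around these 9 genes, 8 lists of the same pathway, chosen with earlier results of these data known, held 117 other genes. Of these 115 were in the table and 89 were tested. Among the 89 tested 10 passed, 7 higher and 3 lower in DOX, or 11.2% beside 6.41% of all genes tested. Their median log2 fold change was 0.17, and the groups did not overlap for 30 of them (33.7%, beside 34.6% of all genes). None of the calls given below for these lists held without PBS replicate 2 or without PBS replicate 3, where 0 of all genes passed edgeR.

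In uptake, transport and binding, 0 of 9 tested genes passed edgeR, with 3 at an unadjusted p under 0.05, which 28.7% of all genes reached. Crabp2, a cytosolic carrier of retinoic acid, had 0.179 ± 0.152 and 0.589 ± 0.275 CPM (edgeR adjusted p = 0.151), and the retinol receptor gene Stra6 was below the filter on low counts. Ttr, the serum partner of retinol binding protein and a hepatocyte marker, had 7.94 ± 4.55 CPM with PBS and 52.0 ± 64.6 CPM with DOX (edgeR adjusted p = 0.166). In ester synthesis and hydrolysis 0 of 9 passed as well, again with 3 at an unadjusted p under 0.05, beside the same 28.7%. Lrat, the enzyme gene that esterifies retinol for storage, had 1.35, 1.12 and 3.51 CPM with PBS and 3.04, 1.97 and 2.21 CPM with DOX, a low level without separation (edgeR adjusted p = 0.745).

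Of 17 tested retinol and retinal oxidoreductase genes 2 fell and 0 rose, beside 2.04% lower and 4.38% higher over all genes. Akr1b8, an aldo-keto reductase gene, fell from 471 ± 10.7 to 336 ± 17.5 CPM (SD, n = 3 each, log2 fold change of -0.49 with an SE of 0.09, adjusted p = 0.0311 by edgeR). Adh7, an alcohol dehydrogenase gene whose product oxidises retinol, fell from 6.22 ± 1.59 to 2.41 ± 0.349 CPM (log2 fold change -1.37, edgeR adjusted p = 0.0334). Neither gene overlapped between groups. Rdh13, a retinol dehydrogenase gene, was at 30.7 ± 5.04 and 19.2 ± 3.14 CPM with an edgeR adjusted p of 0.0592.

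Among 8 tested genes of retinal dehydrogenation, retinoic acid breakdown and carotenoid cleavage, Bco2 rose and none fell. That is 12.5% called, beside 6.41% of all genes tested. Bco2, which encodes a carotenoid-cleaving oxygenase of mitochondria, had 0.636, 1.67 and 1.06 CPM with PBS and 10.6, 5.75 and 5.24 CPM with DOX, 6.37-fold higher (log2 fold change of 2.67 with an SE of 0.44, adjusted p = 0.0277 by edgeR). Cyp26b1, a retinoic acid hydroxylase gene induced by its substrate, was at 11.1, 11.6 and 20.5 CPM with PBS and 31.0, 23.0 and 34.2 CPM with DOX. All its DOX libraries were above all PBS libraries, with a log2 fold change of 1.03 (SE 0.27) that did not pass (edgeR adjusted p = 0.0663). Cyp26a1, whose promoter window holds a repeat of the same type as that of Rarb, had 0.477, 0.392 and 0.657 CPM with PBS and 1.32, 0.197 and 2.73 CPM with DOX, with overlap (edgeR adjusted p = 0.271). Of the 31 genes with such a repeat in a promoter window 7 were tested and 0 passed edgeR, beside 6.41% of all genes. Aldh1a3, the remaining retinal dehydrogenase gene of its family, had 4.29 ± 3.19 and 3.83 ± 0.335 CPM (edgeR adjusted p = 0.853).

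Of 13 other receptor genes tested none passed edgeR, with 4 at an unadjusted p under 0.05, beside 28.7% of all genes. Nr1h3, the gene of the oxysterol receptor LXRα and a partner of RXR, was closest, at 140 ± 29.2 CPM with PBS and 266 ± 64.3 CPM with DOX (log2 fold change 0.93, edgeR adjusted p = 0.0523). Rxrg, the third RXR gene, was below the filter on low counts. Of 13 coregulator genes tested 1 rose and 1 fell, or 15.4% called beside 6.41% of all genes tested. Nrip1, which encodes the ligand-dependent corepressor RIP140, rose from 73.8 ± 2.84 to 125 ± 12.4 CPM (SD, n = 3 each, log2 fold change of 0.76 with an SE of 0.10, adjusted p = 0.0206 by edgeR).

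Of 16 tested genes described elsewhere as retinoic acid targets, 5 rose and 0 fell, beside 4.38% higher and 2.04% lower over all genes, with a median log2 fold change of 0.92 beside -0.01 over all genes. The list was chosen with earlier results of these data known, so this share is a description and not a test of the list. The 5 were Tgm2, a transglutaminase gene, Cd38, an NAD-consuming ectoenzyme gene, Ccr9, a chemokine receptor gene, Itga4, the integrin α4 gene, and Nrip1. Ccr9 had 5.20, 5.99 and 1.57 CPM with PBS and 25.8, 23.1 and 25.5 CPM with DOX (log2 fold change of 2.54 with an SE of 0.44, adjusted p = 0.0296 by edgeR). Cd38 rose 2.46-fold, Itga4 3.02-fold and Tgm2 1.94-fold (edgeR adjusted p = 0.0206, 0.0356 and 0.0420). Several of these 5 are also genes of leukocytes. The log2 fold change was positive for 14 of 14 tested macrophage markers, of which 2 passed. Their sum was 4408 to 6772 CPM in PBS and 8059 to 14968 CPM in DOX. It was also positive for 7 of 7 tested T, B and NK cell markers, of which 2 passed (2.32 to 6.34 CPM summed over the list in PBS, 10.3 to 19.5 CPM in DOX). Of 4 tested neutrophil markers 3 passed, all higher, and the 7 listed summed to 27.2 to 58.8 CPM in PBS and 106 to 152 CPM in DOX. The part of these cells in the 5 changes was not tested. Cyp26a1, Cyp26b1, Crabp2 and Lrat, which are on the same list, did not pass.

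Of 15 tested lipid droplet and lipolysis genes Hilpda rose and none fell. That is 6.67% called, near the 6.41% of all genes tested. Hilpda, a droplet protein gene that inhibits the lipase ATGL, rose from 70.2 ± 4.63 to 138 ± 35.1 CPM (SD, n = 3 each, log2 fold change of 0.97 with an SE of 0.18, adjusted p = 0.0324 by edgeR). Plin2, the droplet coat protein gene, had 499 ± 126 and 762 ± 93.5 CPM (log2 fold change 0.61, edgeR adjusted p = 0.1002). For every 100 FPKM of Pnpla2, the ATGL gene, there were 4.802, 4.93 and 3.27 FPKM of Lipe in PBS and 8.59, 6.96 and 7.75 in DOX, without overlap (exact permutation p = 0.1, the smallest possible here, 0.28 adjusted).

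**Figure D5:**
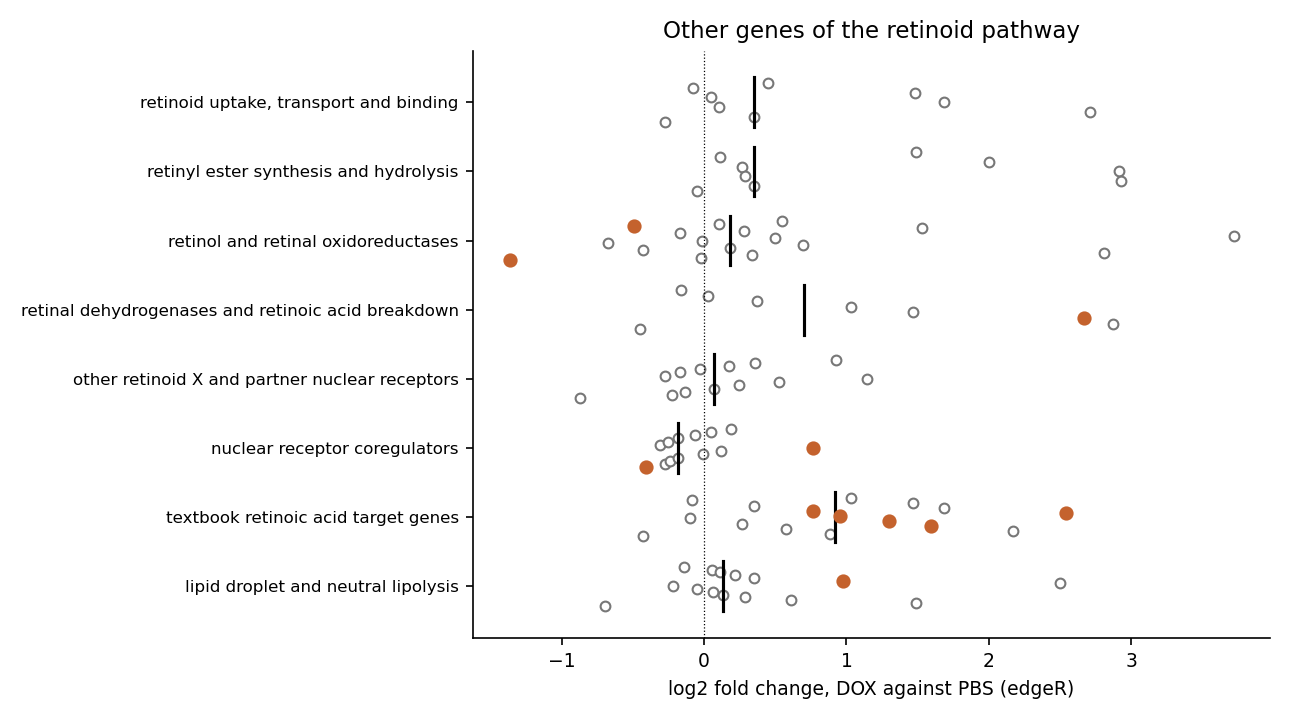
Log2 fold change of DOX against PBS (edgeR, horizontal axis) for each tested gene of the 8 pathway lists, filled where the adjusted p was under 0.05, with the list median as a bar and vertical scatter only for legibility. In the retinoic acid target list 5 of 16 genes are filled, all to the right of 0, and in the oxidoreductase list 2 of 17, both to the left. The lists were chosen with earlier results of these data known.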

How the data were processed

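RNA-seq of 6 libraries was used. Per the labels' protocols, a SMARTER kit for mRNA turned total RNA into libraries. Per the submitters' processing notes, the builds GRCm38, mm10 and hg38 were named, without a role. The names of aligner and counter, and the strand setting, were not given in the sources. The authors deposited raw counts per gene symbol and FPKM values, which equal the same counts per gene length and library total.

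Counts were tested with edgeR 4.0.16 in R 4.3.3 (glmQLFit and glmQLFTest, two-sided, TMM factors, group as the only term, filterByExpr with a minimum count of 10 and total of 15). CPM use TMM-scaled totals, and the SE and the 95% interval of a log2 fold change come from its F statistic. FPKM are not TMM-scaled, which does not touch shares within a library but does touch sums of FPKM. A count of 0 allows up to 3 counts, or 0.0758 to 0.0878 CPM, counting error only. Replicate pairs differed beyond sampling noise (chi-square per degree of freedom 38.6 to 82.1). The code was tested on simulated data. The members and the gene lists were chosen with earlier results of these data known, so no test over a list is given in the text. Named are all 9 members, list genes past the threshold, up to 3 per list with the lowest p, 10 listed genes, the 2 most abundant genes of each marker list, and Bche; of these the text gives a part, and some are not reported here. Pattern likeness was taken for the 2 members with the lowest p. Alternatives were RLE factors, library totals, other filters, DESeq2 1.42.0, limma 3.58.1 (voom, and on log2 FPKM with pseudocounts of 1 and 0.1), a replicate block and leaving out each library.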

Additional observations from a re-analysis of the deposited data

How the results depend on the processing

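Of all genes, 926 passed in the main test and 2658 by DESeq2; of the 9 retinoid genes 2 and 3, and of the other pathway genes 10 and 23. With each library left out the counts ranged from 0 to 1090 genes, 0 retinoid genes in every case, and 0 to 10 pathway genes. Leaving out PBS replicate 2 or PBS replicate 3 gave 0 genes by edgeR, with 3294 and 3092 at an unadjusted p under 0.05; leaving out DOX replicate 1 gave 85 and DOX replicate 2 gave 438. Of the 9 genes 1 passed without a filter on low counts (Lipe), 1 by limma on log2(FPKM + 1) and 1 on log2(FPKM + 0.1) (Rara in both). With library totals alone the calls were 611 upward and 730 downward, so 45.6% upward instead of 68.3%, and the median log2 fold change of all genes was -0.14; limma on log2(FPKM + 1) gave 51.3% higher and on log2(FPKM + 0.1) 51.6%, and the replicate block 79.6%. The cause of these differences was not tested.

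Rara and Lipe each passed in 7 of 15 alternatives and kept their sign in all 15, as did the other genes of the 9 except Rdh10. The log2 fold change of Rdh10 was -0.0621 by library totals, -0.0091 and -0.0069 by limma on log2(FPKM + 1) and log2(FPKM + 0.1), and between -0.19 and 0.32 with each library left out. Lrat was between -0.0176 and 0.96 and Aldh1a3 between -0.45 and 0.64 with each library left out, and Aldh1a3 was 0.0635 by limma-voom.

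Replicate numbers in the titles are shared between groups, but same-numbered libraries deviated together only in part (r = 0.0949, -0.106 and 0.232). The labels do not say that a number marks a shared mouse, batch or day, so whether it does is not known, and the numbers were not taken as pairs. With the replicate number as a block 781 genes passed, 1 of the 9 retinoid genes (Lipe; Rara had an edgeR adjusted p of 0.0893), and 7 pathway genes. The edgeR adjusted p was then 0.0650 for Akr1b8, 0.0540 for Adh7 and 0.0548 for Tgm2, which no longer passed. For Cyp26b1, which did pass, it was 0.0365. Aldh1a3 had a log2 fold change of 0.0653 with this block (edgeR adjusted p = 0.935). DOX replicate 2 correlated more with PBS replicate 1 (0.140) than with its own number. Depth limits genes near 0.0878 CPM, such as Stra6 and Rxrg, but none of the 9.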

Other observations

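The spread between libraries of a group differed widely among the 9 genes. In PBS the coefficient of variation was 2.02% for Rara, 6.73% for Rarg and 9.24% for Rxra, and 39.3% for Rarb, 40.9% for Aldh1a1 and 50.8% for Aldh1a2, where counting error alone gave 6.21%, 5.76% and 6.49%. Set against counting error, the spread in PBS was widest for Rdh10, at 35.3% beside 2.38%, and for Dhrs3, at 15.4% beside 1.08%, and Rara was below it, at 2.02% beside 2.75%. Aldh1a1 was also the most variable of the 9 in DOX, at 57.8%, while Rdh10 had 14.8% there.

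The dendritic cell marker Ccr7 rose from 19.9 ± 5.93 to 81.0 ± 12.9 CPM (SD, n = 3 each, log2 fold change 2.03, SE 0.23, edgeR adjusted p = 0.0200). Of the 10 tested dendritic cell markers 3 passed, all higher, beside 4.38% of all genes, but the log2 fold change was positive for 7 and negative for 3 of them, with a median of 0.53. Fscn1, an abundant gene of that list, had a log2 fold change of -0.30 (edgeR adjusted p = 0.230).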
